A study of Homo sapiens and Homo sapiens
Mus musculus and Mus musculus with 200 samples.

Results

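Late-loss elements are regulatory regions of human cranial neural crest cells (hCNCC) that kept most of their H3K27ac for 3 h after TWIST1 was degraded and had lost much of it by 24 h. They were chosen from H3K27ac read counts over 213151 merged ATAC-seq peaks, which are stretches of open chromatin, in the line TWIST1FV. An element had to average at least 5 CPM (the count divided by its library total and multiplied by the same constant in every library) at 0 h. Its mean log2(CPM + 1) had to change by more than -0.4 at 3 h and by -1 or lower at 24 h. Of the 35191 elements that reached 5 CPM, 497 passed both limits. These choosing values are given below as a description only, and no test of them is read as a result.

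The cells came from the H9 embryonic stem cell line, and each of 6 lines gave 2 H3K27ac libraries at 0, 3 and 24 h of 500 nM dTAGV-1, a compound that triggers degradation of a tagged protein. WT cells carry no tag, so they received the compound with no target. TWIST1FV, ALX1FV, PRRX1FV and MSX1FNV carry the tag on the named factor, and ALX1FV ALX4- carries it on ALX1 and also lacks ALX4. Both TWIST1FV replicates are the same clone and so are both MSX1FNV replicates, while the replicates of ALX1FV, ALX1FV ALX4- and PRRX1FV are different clones. Nothing in the labels says that replicates were separate cultures, so p-values measure only the spread between these libraries. Library totals ran from 5137169 to 9173063, and even numbers made up 76.7% or more of the larger counts (20 and up) in each library, so a count may not be 1 independent fragment. The mouse spike-in chromatin of the TWIST1FV and WT libraries was not used here, so a change at all elements together could not be measured. The crest identity of the cells was checked at start sites, where 14 of 16 neural crest markers reached 5 CPM in TWIST1FV and in WT at 0 h. SOX10 and B3GAT1 did not. Of 5 pluripotency markers 2 reached it (LIN28B and DPPA4), and of the neuronal, muscle and endothelial markers none did.

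H3K27ac is an acetylation of histone H3 found at active enhancers and promoters. TWIST1 is a basic helix-loop-helix factor that binds E-box sequences, and in cranial mesenchyme it acts beside homeodomain factors such as ALX1, ALX4, PRRX1 and MSX1, which bind TAAT-core sites. AP2a, encoded by TFAP2A, is another factor of the neural crest. Mutations in human TWIST1, ALX1, ALX4 and MSX1 are known causes of skull and facial malformations.

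Because TWIST1 and homeodomain factors are known to share a composite site, the members that hold one are shown first. The composite is an E-box (CAGATG or its complement CATCTG, or else CAGCTG or CATATG) and a homeodomain site (TAATTA, or else TAATTG or its complement CAATTA) with 4 bp between them in either order. It was found in 5 of the 497 elements, 1.01% (Wilson 95% interval 0.430 to 2.33), against 0.861% of all elements with 5 CPM and 0.598% of all 213151. Among the early-loss and in-between elements defined below, 2.17% and 1.44% held a composite. Away from gene start sites the share was 1.12% of members (0.479 to 2.59) and 1.32% of elements with 5 CPM. That restriction was chosen after the data were seen. All searches covered a window at the centre of each element, as wide as the narrowest elements, and both strands. The 4 sites with the strongest WT TWIST1 peaks lie near PTGS1 (cyclooxygenase 1, chr9:122348296-122348371, intergenic), KCNRG (chr13:50354165-50354240, intergenic), DLG1 (a scaffold protein of cell junctions, chr3:197353206-197353281, intergenic) and BNC2 (a zinc finger factor, chr9:16795420-16795495, in an intron). They are given from the + strand of hg38 with the paired sites in capitals.
PTGS1: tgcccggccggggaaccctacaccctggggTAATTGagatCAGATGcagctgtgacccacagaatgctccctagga
KCNRG: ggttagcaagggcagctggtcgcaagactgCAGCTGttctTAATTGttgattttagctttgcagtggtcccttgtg
DLG1: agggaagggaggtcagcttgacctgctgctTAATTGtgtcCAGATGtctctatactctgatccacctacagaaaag
BNC2: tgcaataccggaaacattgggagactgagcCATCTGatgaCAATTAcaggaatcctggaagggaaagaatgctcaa
The 4 bp gap was set by the search, and the order of the sites depends on the strand read. On the + strand the homeodomain site comes first at PTGS1 and DLG1. On the other strand both read CATCTG, 4 bp and CAATTA, as BNC2 does on the + strand, while KCNRG pairs CAGCTG with TAATTG. None of the 497 windows held a composite built on TAATTA alone, which allows a share of up to 0.604%.

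A pair of E-boxes 5 bp apart, here called a double E-box, was found in 10 members, 2.01% (1.10 to 3.66), against 0.540% of elements with 5 CPM and 0.446% of all elements. Of the early-loss elements defined below 1.53% held it. The 4 with the strongest WT TWIST1 peaks are shown because this arrangement holds no homeodomain site, and they were chosen after values were seen. They lie near PALD1 (chr10:70562503-70562579, intron), AXIN2 (a negative regulator of WNT signalling, chr17:65519609-65519685, intergenic), PCSK7 (a proprotein convertase, chr11:117224712-117224788, intron) and MRGPRF (chr11:69014417-69014493, intergenic), in the same build and strand.
PALD1: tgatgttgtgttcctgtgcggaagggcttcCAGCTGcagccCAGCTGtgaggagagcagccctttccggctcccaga
AXIN2: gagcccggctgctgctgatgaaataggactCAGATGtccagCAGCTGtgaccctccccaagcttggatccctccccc
PCSK7: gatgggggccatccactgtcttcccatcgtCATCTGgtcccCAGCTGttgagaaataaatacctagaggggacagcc
MRGPRF: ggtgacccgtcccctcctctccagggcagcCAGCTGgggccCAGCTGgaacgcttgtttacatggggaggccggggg
Each of the 4 pairs holds CAGCTG, which reads the same on both strands, and at PALD1 and MRGPRF both E-boxes are CAGCTG. The site at MRGPRF lies 653 bp from the summit of the TWIST1 peak, and the other 3 lie 10 to 38 bp from theirs. H3K27ac at the PALD1 element was 22.4 and 13.5 CPM at 0 h, 23.5 and 8.56 at 3 h and 9.31 and 3.72 at 24 h in TWIST1FV. At the PTGS1 element it was 34.7 and 29.5, then 27.8 and 29.9, then 10.4 and 12. At PTGS1 the 3 h libraries overlapped those of 0 h and both 24 h libraries lay far below.

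Over all 497 members the median level was 11.2 and 9.30 CPM in the TWIST1FV libraries at 0 h, 10.2 and 7.89 at 3 h, and 4.24 and 3.45 at 24 h. Changes in log2(CPM + 1) had a median of -0.27 at 3 h (range -0.40 to 0.30) and -1.19 at 24 h (range -2.24 to -1.002). Computed by replicate, the 3 h medians were -0.19 and -0.28, and those of 24 h were -1.17 and -1.26. A member could still lose signal at 3 h within the limit, and 459 members (92.4%) were below 0 at that time, against 47.5% of all elements with 5 CPM. Both 3 h libraries lay below both 0 h libraries at 152 members (30.6%), and 33.2% of all elements with 5 CPM did the same. At 24 h this held for 487 (98.0%), against 38.2%. Library scaling by TMM shifted the median of all elements with 5 CPM by -0.08 at 3 h and -0.12 at 24 h, and the members' medians then read -0.35 and -1.29.

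**Figure D1:**
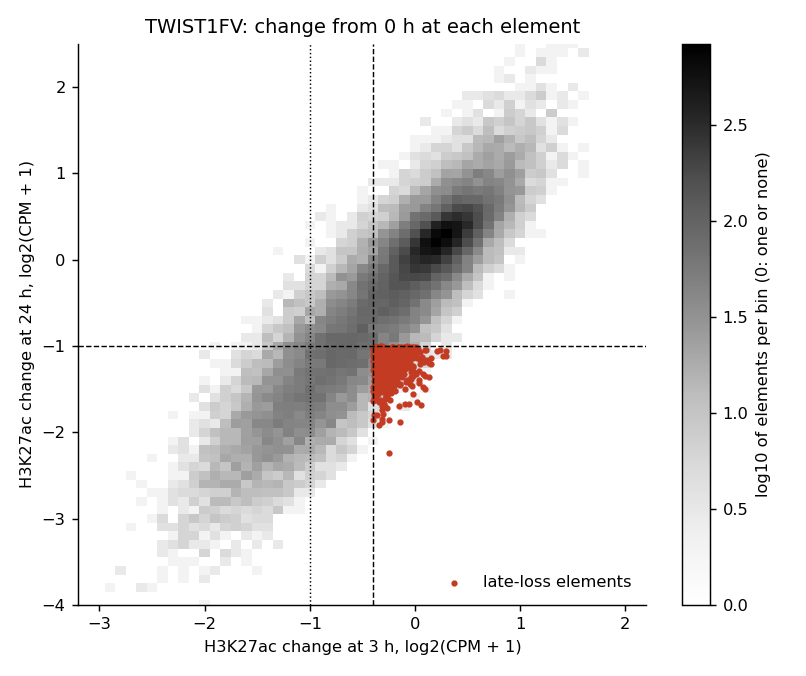
Change in H3K27ac from 0 h in TWIST1FV, in log2(CPM + 1), at 3 h (horizontal) and 24 h (vertical) for the 35191 elements with at least 5 CPM, shaded by the log10 number of elements per bin. Red points are the 497 late-loss elements, which fill the corner between the dashed limits of -0.4 and -1 next to the bulk of the elements, and the dotted line marks the 3 h limit of early loss at -1.

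Elements that met the 24 h limit numbered 7879. Early-loss elements, with a change of -1 or lower already at 3 h, made up 4327 of them, and 3055 lay in between. A further 13342 elements stayed within 0.4 of their 0 h level at both times and are called stable. Across the whole table the quasi-likelihood test of edgeR, at a Benjamini-Hochberg adjusted p of 0.05, called 5.29% of 123361 tested elements at 3 h (4.28% lower, 1.01% higher) and 13.8% at 24 h (9.49% lower, 4.28% higher). Of the 497 members it called 0 at 3 h (16 had an unadjusted p under 0.05 and were lower, as were 11.2% of all tested, and DESeq2 called 0) and 459 lower at 24 h (493 at an unadjusted p under 0.05, against 15.0% of all tested). The rule used these contrasts, so nothing is read from these counts. With the replicate number as a block 18 members were called at 3 h, all lower. That fit called 8982 lower and 3932 higher of all 123361 tested elements.

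The limits run through a dense part of the data. An intergenic element nearest to FOXA2 (chr20:22801377-22801877) entered with 5.05 CPM, while one nearest to BNC1 at 4.98 did not. At 3 h a CDH11 element (chr16:65523281-65524352) stood inside at -0.3989 and a KIAA1755 element outside at -0.4001. At 24 h the MSX1 intron (chr4:4860693-4861954) was inside at -1.002 and a LIN52 element outside at -0.999. Membership therefore moves with single libraries. Without the second 3 h library the rule chose 1016 elements, which held 85.1% of the 497 (41.6% of the 1016), and without the first 24 h library 864, which held 87.3% (50.2% of the 864). With the other libraries left out in turn the number stayed within 1.5 times of 497, and without the second 0 h library 426 elements held 46.1% of the members (53.8% of the 426). With TMM scaling it chose 511, of which 336 were members (67.6% of the members, 65.8% of the 511).

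**Figure D2:**
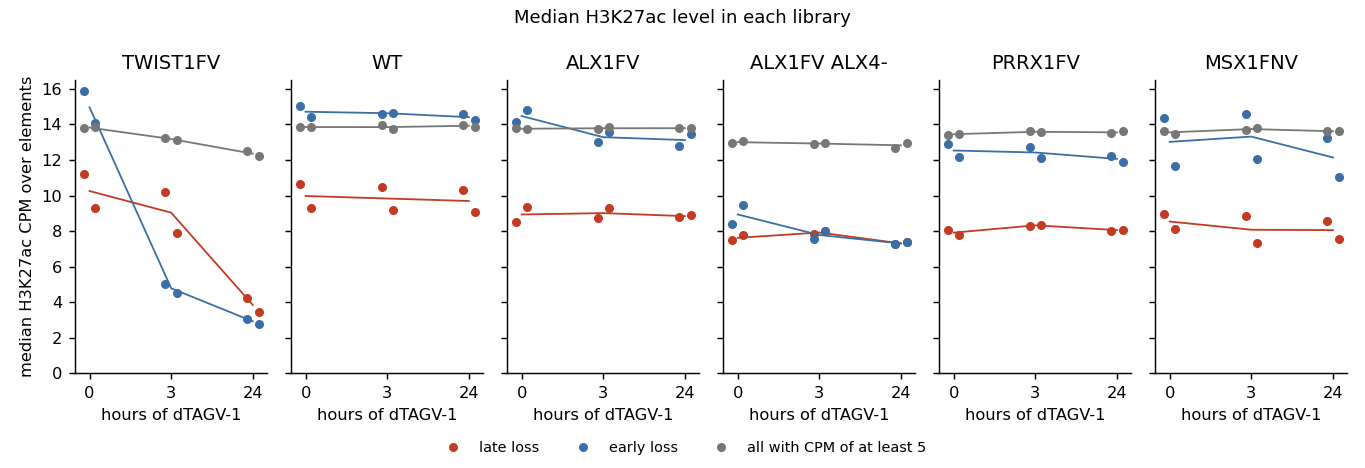
Median H3K27ac level in CPM of sets of elements by line and hours of dTAGV-1, with times drawn at even spacing. Each point is 1 library, and lines join the means of 2 replicates. Blue points are early-loss elements and grey points all elements with at least 5 CPM. Red points are the 497 late-loss elements. In TWIST1FV the red points go from 11.2 and 9.30 at 0 h to 4.24 and 3.45 at 24 h, while in the other 5 lines they stay between 7.25 and 10.6.

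Among members with a 0 h level above the median, the lowest 24 h change was found at an intergenic element nearest to RAB11FIP2, a RAB11 effector of recycling endosomes (chr10:118144969-118145469). It measured 15.2 and 9.30 CPM at 0 h, 14.2 and 8.02 at 3 h, and 3.30 and 1.86 at 24 h, a change of -1.88. Both 24 h libraries were far below all earlier ones, and the 0 h and 3 h libraries overlapped. An intron of SOAT2, which esterifies cholesterol (chr12:53113271-53114393), went from 24.6 and 23.2 through 19.3 and 18.7 to 7.78 and 4.25. Here all 3 times were separate. An intergenic element nearest to PSEN2, a catalytic subunit of gamma-secretase (chr1:226820846-226822395), went from 13.1 and 9.75 through 10.3 and 8.56 to 3.06 and 1.86. An intron of PLXNA2, a semaphorin receptor (chr1:208182852-208183666), went from 13.5 and 12.2 through 12.4 and 7.35 to 3.65 and 2.39. At PSEN2 and PLXNA2 too, both 24 h libraries lay below all earlier ones.

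The strongest of this group was an intron of KLHL29 (chr2:23628954-23630140), with 62.6 and 55.7 CPM at 0 h, 58.2 and 38.8 at 3 h and 18.4 and 14.6 at 24 h. In WT the same element measured 68.2 and 51.0, then 64.6 and 46.0, then 59.5 and 50.0, so its WT libraries overlapped at every time. An intron of RAP1GAP2, a GTPase activator of RAP1 (chr17:2848696-2849787), went from 37.5 and 35.4 through 37.1 and 22.7 to 14.4 and 7.71. It stood at 30.6 and 29.5 in WT at 0 h but at 10.7 and 8.17 in PRRX1FV and 14.4 and 12.4 in MSX1FNV, so its starting level differed between lines. A start site of DHRS3, a retinaldehyde reductase (chr1:12596336-12596836), went from 12.3 and 11.6 through 12.8 and 6.28 to 4.95 and 1.33. The intron that MINDY4 shares with ENSG00000250424 (chr7:30853538-30854038) went from 21.3 and 11.3 through 17.6 and 8.82 to 4.95 and 3.45. The lowest change of all members, -2.24, was that of an intergenic element nearest to FAM241B (chr10:69686194-69686971), singled out after its values were seen, with 8.20 and 6.46 at 0 h and 0.707 and 0.797 at 24 h.

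**Figure D3:**
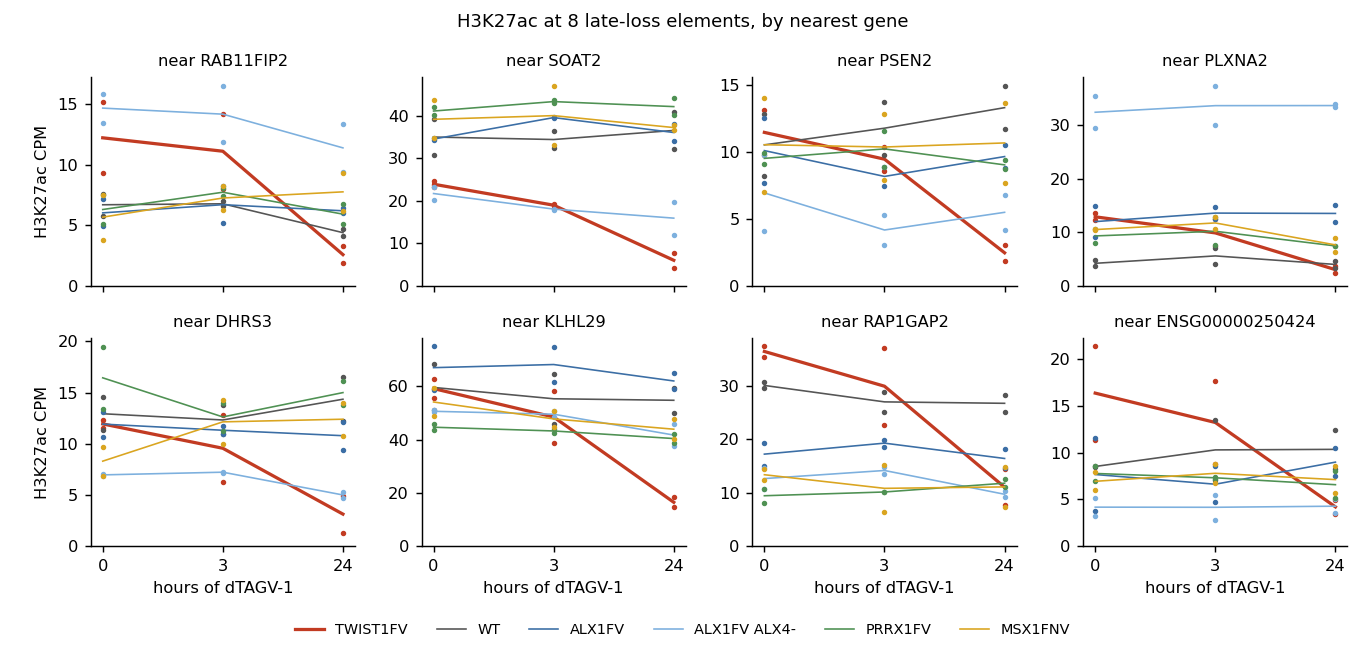
H3K27ac in CPM at the 8 late-loss elements with the lowest 24 h change among those with 0 h levels above the median, by hours of dTAGV-1 at even spacing. Points are libraries, lines join the means of 2 replicates, and colours are the 6 cell lines. TWIST1FV, the line used to choose the elements, drops in every panel, and at RAB11FIP2 and PLXNA2 ALX1FV ALX4- stands highest at 0 h.

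The members with the highest 0 h level included an intergenic element nearest to SRC, a tyrosine kinase (chr20:37437425-37438732). It measured 83.0 and 73.6 CPM at 0 h, 81.0 and 58.2 at 3 h and 46.2 and 23.6 at 24 h. One nearest to NDFIP2, an adaptor of NEDD4-type ubiquitin ligases (chr13:79833897-79835040), measured 103 and 53.1, then 85.4 and 47.7, then 48.3 and 23.9. The NDFIP2 element shows how wide the replicates could lie, since its first 24 h library nearly reached its second 0 h library. The start site of TNS1, a protein of focal adhesions (chr2:218001733-218002511), went from 79.2 and 74.6 through 64.5 and 52.4 to 40.3 and 34.1. Of the other members with the highest levels, an element nearest to KRR1 (chr12:75710333-75710833, intergenic) changed by -1.04 and an intron of SLC24A4 (chr14:92459261-92460017) by -1.08.

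Within 500 bp of an annotated start of a protein-coding gene lay 50 members (10.1%, 7.71 to 13.0), against 10.8% of all 213151 elements, 36.2% of those with 5 CPM, 61.6% of stable, 4.98% of in-between and 2.06% of early-loss elements. The rest lay in introns (223), between genes (209), in untranslated regions (13) or in coding exons (2). At the start of KCP, a secreted modulator of BMP signalling (chr7:128909106-128910992), the level was 28.2 and 29.0 CPM at 0 h, 25.4 and 28.1 at 3 h and 10.7 and 6.38 at 24 h. In ALX1FV the same start site differed between the 2 clones, with 12.5 against 53.0 at 0 h and 14.03 against 54.2 at 24 h. The start of DAAM2, a formin of WNT signalling (chr6:39791823-39793962), went from 41.6 and 50.4 through 32.0 and 38.1 to 18.3 and 14.5. The start of SLC40A1, the iron exporter ferroportin (chr2:189580174-189581708), went from 26.5 and 34.4 through 28.5 and 29.5 to 10.1 and 15.1. At SLC40A1 the 3 h libraries lay within the range of 0 h. The start of EPHA4, an ephrin receptor (chr2:221571783-221572661), went from 33.0 and 24.8 through 26.5 and 18.4 to 13.7 and 13.2. The start of TRMT61A, a tRNA methyltransferase (chr14:103528025-103528801), went from 27.3 and 41.4 through 23 and 28.2 to 15.1 and 10.48.

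Each element was labelled with the protein-coding gene whose start was nearest, which is a distance label and not a target. The 497 members had 411 such genes, and 70 of these were nearest to 2 or more members. Members of 10 of 11 lists of pathway, factor and matrix genes were found, and 59 of the 2936 elements with 5 CPM nearest to a listed gene (2.01%) were late-loss, against 1.41% of all elements with 5 CPM. Of those 2936, edgeR called 1056 lower and 189 higher at 24 h in TWIST1FV, against 9361 lower and 1552 higher of all 35191. The rule used these contrasts, and the lists were chosen with earlier results known.

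Among guidance genes (semaphorins, ephrins, slits, netrins and Notch), 18 of 565 elements (3.19%) were late-loss and 105 early-loss, and 246 were called lower and 24 higher at 24 h. The 18 belong to 13 genes: the receptors EPHA4, EPHB2, NRP1, NRP2, PLXNA1, PLXNA2, PLXND1 and ACKR3, the ligands SEMA3F, SEMA6A, EFNB1 and CXCL12, and the Notch target HES1. An intergenic element nearest to SEMA3F (chr3:50123957-50125345) measured 46.4 and 66.5 CPM at 0 h, 64.3 and 59.6 at 3 h and 26.2 and 23.4 at 24 h, a 3 h change of 0.16. An intron of EPHB2 (chr1:22835507-22836379) went from 34.5 and 34.8 through 41.3 and 22.6 to 19.6 and 10.8. At neither element did the 3 h libraries separate from those of 0 h.

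Of 543 elements of neural crest and craniofacial transcription factors, 9 (1.66%) were late-loss and 67 early-loss, with 158 called lower and 54 higher. Among them were elements nearest to LMX1B, MSX1, NR2F2, PAX7, PRRX1, TWIST2, ZEB2 and ZIC1. The MSX1 intron, within a gene that is itself tagged in MSX1FNV, measured 28.2 and 34.6 CPM at 0 h, 20.1 and 30.3 at 3 h and 10.8 and 20.9 at 24 h. Its first 3 h library already lay below its second 24 h library. The PAX7 intron (chr1:18670528-18671028), in a factor of crest and muscle precursors, went from 36.9 and 22.6 through 22.2 and 23 to 17.2 and 9.57. In the list of craniosynostosis and cleft genes 7 of 224 elements were late-loss (ARHGAP29, EFNB1, MSX1, PAX7, SPRY2, TCF12 and ZIC1), with 77 called lower and 17 higher.

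The BMP and TGF-beta list had 4 late-loss elements of 249, with 104 called lower and 20 higher. The late-loss ones included elements nearest to BMPR1B (a BMP receptor), SMAD7 (an inhibitor of the pathway) and TGFBR3 (a co-receptor). The BMPR1B intron (chr4:94889473-94890198) went from 38.6 and 40.5 CPM through 28.2 and 33.0 to 16.6 and 22.1. Its 24 h libraries both lay below those of 0 h and 3 h.

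Growth factor and hedgehog genes had 7 of 423 (108 called lower, 41 higher), including GLI2, a hedgehog effector, whose element (chr2:120596421-120597707, intergenic) went from 54.3 and 35.4 CPM through 52.8 and 27.4 to 25.2 and 14.9. The GLI2 element stood at 31.3 and 24.2 in WT at 0 h but between 8.05 and 14 in the 8 libraries of the other 4 lines. The list of 48 WNT genes, which does not hold DAAM2 or NKD2, had 3 of 331 (111 lower, 14 higher), all nearest to AXIN2. A list of 15 FOX and TBX factors, without FOXA2 and TBX4, had 4 of 97 (28 lower, 2 higher), among them an intron of FOXP1 (chr3:71542443-71542943) with 15.2 and 16.6, then 13.4 and 13.9, then 5.66 and 4.25. An element nearest to TBX2 (chr17:61352284-61353587), in an intron of BCAS3, went from 28.7 and 23 through 26.9 and 18.9 to 13.7 and 8.50.

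Matrix genes had 6 of 260 (101 lower, 5 higher), nearest to ADAMTS9, COL12A1, COL6A1, ELN and TNC. The COL6A1 element (chr21:45972288-45972788, intergenic) changed by -0.06 at 3 h, with 36.5 and 29.0 CPM, then 38.0 and 25.7, then 18.9 and 11.4. The COL12A1 element (chr6:75081664-75082390, intergenic) went from 27.9 and 19.2 through 22.9 and 18.6 to 15.3 and 7.71. Adhesion genes had 4 of 250 (105 lower, 13 higher), nearest to CADM2, CDH11 and NCAM1. Bone, cartilage and muscle regulators had 2 of 50 (21 lower, 7 higher), an intron of RUNX3 (chr1:24914326-24914826) and an element nearest to MEF2C (chr5:89213550-89214050, intergenic). Of 147 elements of neuronal and glial genes none was late-loss, which allows a share of up to 2.04% and so does not set them apart from the 1.41% of all elements with 5 CPM. In that list 43 were early-loss, and 67 were called lower and 9 higher at 24 h.

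TWIST1 had been mapped in the same cells, and its peaks covered most members. Peaks of both WT lists at 0 h overlapped 441 of 497 (88.7%, 85.7 to 91.2), and peaks of both TWIST1FV lists at 0 h 377 (75.9%, 71.9 to 79.4). The WT share was 95.6% of early-loss, 93.5% of in-between, 42.9% of stable and 58.4% of all elements with 5 CPM. These sets differ in their part of start sites, and a restriction to other places was chosen after the data were seen. Away from start sites the WT share was 89.5% of members, 95.7% of early-loss, 61.6% of stable and 73.6% of elements with 5 CPM. At 3 h of dTAGV-1 a TWIST1FV peak remained at 11 members (2.21%, 1.24 to 3.92), against 3.06% of elements with 5 CPM, in lists that had shrunk from 33479 and 25034 peaks to 835 and 739. In WT at 3 h of the compound the 2 TWIST1 lists overlapped 91.5 and 91.3% of members. Both TWIST1 lists of ALX1FV ALX4- at 0 h overlapped 405 members (81.5%, 77.8 to 84.7), against 86.6% of early-loss elements and 55.3% of elements with 5 CPM.

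The TWIST1 peaks over members were lower than those over early-loss elements. The authors' fold enrichment in the first WT list had a median of 23.6 over members, 29.5 over in-between, 40.4 over early-loss and 7.72 over stable elements that had a peak. At the RAP1GAP2 element the fold enrichment was 50.6 in WT and 33.8 in TWIST1FV at 0 h, and RAP1GAP2 is among the 11 members with a peak left at 3 h. The others lie nearest to CTDSP2, PDGFA, AHNAK, PVALB, TBX4, CLXN, PTPN5, TNS1, SORBS3 and CGB7. At the TNS1 one (chr2:217636896-217638101, intergenic) the fold in the first TWIST1FV list went from 56.0 at 0 h to 7.28 at 3 h, and H3K27ac went from 54.6 and 32.8 CPM through 40.6 and 25.1 to 24.0 and 14.2.

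Neither WT list had a TWIST1 peak at 26 members. For 18 of the 26 a WT TWIST1 summit lay within 5 kb, and 5 of the 26 were start sites. Their median 24 h change was -1.20, beside -1.19 for the 441 with a peak in both lists. The rule chose all members on this change and so holds such medians close together, and nothing is read from their likeness. An intron of RFLNA (chr12:124279852-124280352) was among those without a peak in both lists, with 31.9 and 32.7 CPM at 0 h, 36.4 and 23 at 3 h and 19.6 and 9.57 at 24 h.

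AP2a was listed by 2 antibodies, and both lists overlapped 108 members (21.7%, 18.3 to 25.6), against 39.0% of elements with 5 CPM, 53.0% of stable and 16.7% of early-loss elements. AP2a peaks and base composition move together, and members held a median of 50.5% G and C, between the 42.9% of early-loss and 61.7% of stable elements. Among elements with 45 to 55% G and C the AP2a share was 14.7% of 217 members (10.6 to 20.1), 22.4% of early-loss and 31.2% of stable elements, so its place relative to early-loss elements turned. Away from start sites it was 17.9% (14.6 to 21.7), beside 16.3% of early-loss elements. Both of these restrictions were chosen after the data were seen.

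In RS4;11, a lymphoblast line, TWIST1 peaks overlapped 125 members (25.2%, 21.5 to 29.1), against 16.0% of in-between, 10.8% of early-loss and 67.2% of stable elements. Away from start sites the shares were 24.4% of members (20.6 to 28.6), 10.6% of early-loss, 35.5% of stable and 23.5% of all elements with 5 CPM. The members' share was above that of early-loss elements and, away from start sites, near that of all elements with 5 CPM. RS4;11 had 1 TWIST1 list, and the difference between these sets was not tested.

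The homeodomain factors were listed at few members, and the lists are short. ALX1, read through its V5 tag in ALX1FV, overlapped 17 members (3.42%, 2.15 to 5.41) in either of lists of 1389 and 376 peaks, against 3.91% of elements with 5 CPM and 11.2% of early-loss elements. Away from start sites, a restriction chosen after the data were seen, the share was 3.58% of members (2.22 to 5.73). It was 5.90% of elements with 5 CPM, 4.57% of stable and 11.2% of early-loss elements there. In ALX1FV ALX4- ALX1 overlapped 21 members (4.23%, 2.78 to 6.37), against 11.1% of early-loss, 6.55% of in-between and 2.37% of stable elements. Only 1 member (0.201%) had an MSX1 V5 peak, in either of lists of 50 and 278 peaks. The MSX1 share was 0.901% of early-loss, 0.884% of in-between and 0.735% of stable elements. No member had a PRRX1 V5 peak, in PRRX1 lists of 2 peaks and 1 peak, which cannot show occupancy at members. The V5-bound member with the highest H3K27ac was an intergenic element nearest to CDH11, a mesenchymal cadherin (chr16:65698898-65699398), with 65.1 and 61.4 CPM at 0 h, 52.2 and 51.1 at 3 h and 31.3 and 29.1 at 24 h. This CDH11 element had ALX1 V5 peaks with and without ALX4, as did one nearest to SPRY2, a feedback inhibitor of growth factor receptors (chr13:79936172-79936672). At the SPRY2 element the values were 47.3 and 46.5, then 36.3 and 40.4, then 24.3 and 17.5. Elements at BTG1 (chr12:92364639-92365139, intergenic) and MME (chr3:155070791-155071291, intron), the gene of the surface peptidase neprilysin, had a V5 peak only in ALX1FV ALX4-.

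HEK293, a kidney-derived line, was transfected with V5-tagged TWIST1 without or with ALX4. TWIST1 peaks overlapped 14.9, 11.5 and 22.3% of members in 3 lists without ALX4 and 21.1, 25.6 and 31.6% with it. The means were 16.2% ± 5.56 and 26.1% ± 5.25 (SD, n = 3 lists each), a difference that an exact two-sided permutation test gave p = 0.2. For early-loss elements they were 8.01% ± 2.07 and 26.3% ± 4.29, with p = 0.1 in the same exact permutation test, the smallest that 3 against 3 allows, and for all elements with 5 CPM 32.1% and 36.0% with an exact permutation p = 0.6. The lists with ALX4 held 29430 to 65005 peaks and those without it 22465 to 56014, and how far list size enters the shares was not tested. Lists with the same number share only that number, and the share was higher with ALX4 in 3 of 3 such pairs (exact permutation p = 0.25 within pairs, the smallest that 3 pairs allow). With TWIST1 from a pCAG plasmid, read with a TWIST1 antibody in 1 list each without a replicate check, the shares without and with ALX4 were 19.7 and 21.1% of members and 11.3 and 27.5% of early-loss elements. No member had a V5 peak in the pUC19 control list.

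**Figure D4:**
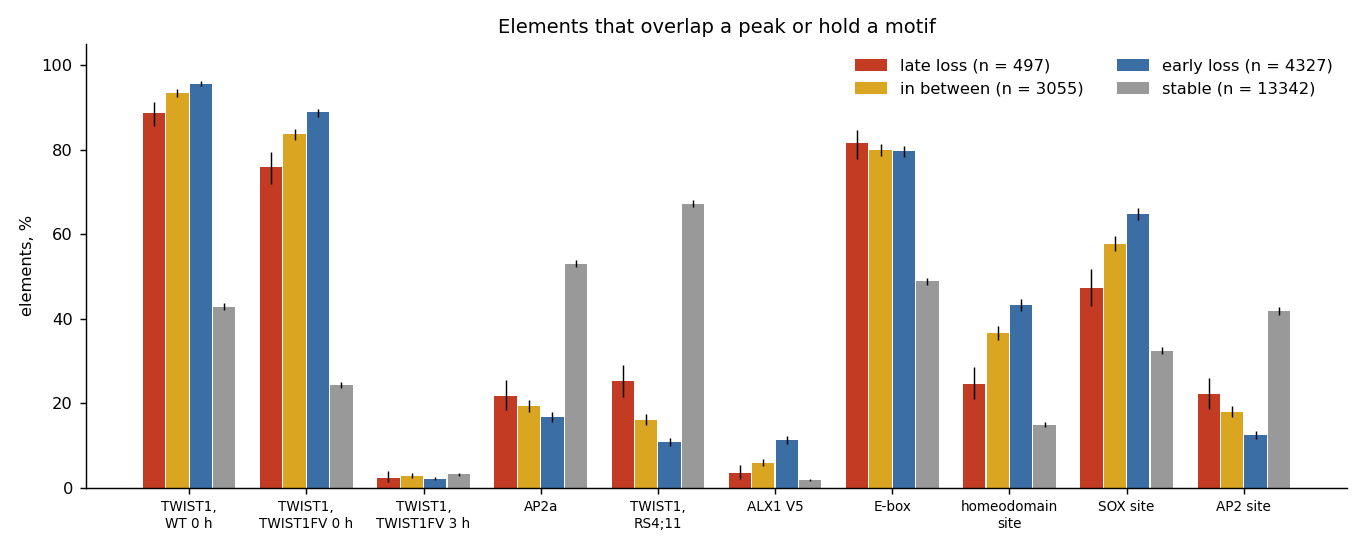
Percentage of elements that overlap a peak or hold a motif, for late-loss, in-between, early-loss and stable elements, with Wilson 95% intervals for counting error. Late-loss elements come near early-loss elements in TWIST1 (88.7 and 95.6%) and E-boxes (81.5 and 79.6%) and, before any restriction on base composition, lie between early-loss and stable elements in homeodomain sites, SOX sites and RS4;11 TWIST1.

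E-boxes stood in 405 members (81.5%, 77.8 to 84.7), in 79.6% of early-loss, 48.8% of stable and 63.6% of all elements. Away from start sites the E-box shares were 83.7% of members, 79.7% of early-loss, 66.3% of stable and 72.2% of elements with 5 CPM. A homeodomain site was present in 122 members (24.5%, 20.97 to 28.5), in 43.3% of early-loss, 36.6% of in-between, 14.9% of stable and 30.2% of all elements. These sites are rich in A and T, and among elements with 45 to 55% G and C the shares came together, at 26.7% of members (21.3 to 33.0), 32.8% of early-loss and 26.7% of stable elements. SOX sites (ACAAT or ATTGT) were found in 47.3% of members (42.9 to 51.7) and 64.8% of early-loss elements, and in 55.8% of all elements. At 45 to 55% G and C the SOX shares were 47.5% of members (40.9 to 54.1), 54.7% of early-loss and 50.8% of stable elements, so members no longer lay between the other groups. AP2 sites (GCCNNNGGC, which reads the same on both strands) were found in 22.1% of members (18.7 to 26.0), 12.4% of early-loss, 41.8% of stable and 21.6% of all elements. A match is a description of letters and not of binding.

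H3K27ac in the other 5 lines was independent of the choice. The members' median change in log2(CPM + 1) at 24 h was 0.01 in WT, 0.00 in ALX1FV, -0.09 in ALX1FV ALX4-, -0.01 in PRRX1FV and -0.08 in MSX1FNV. For all elements with 5 CPM the medians at 24 h ran from -0.03 in ALX1FV ALX4- to 0.01 in ALX1FV. In MSX1FNV in-between and early-loss elements also had 24 h medians of -0.08. In ALX1FV ALX4- theirs were -0.13 and -0.23. At 3 h the members' medians were 0.02 in WT, ALX1FV too at 0.02, 0.00 in ALX1FV ALX4-, 0.03 in PRRX1FV and -0.03 in MSX1FNV. In none of these 5 lines, including those where ALX1, PRRX1 or MSX1 was degraded, did edgeR call a member at either time (adjusted p of 0.05, 494 to 497 members tested). DESeq2 called 0 as well.

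The background calls were as few. Of all tested elements edgeR called 0.0% at both times in WT and in ALX1FV, 0.0% at 3 h and 0.0279% at 24 h in ALX1FV ALX4- (0.027% lower, 0.00082% higher), 0.0% and 0.000827% in PRRX1FV and 0.00179% and 0.00448% in MSX1FNV. At an unadjusted p under 0.05 at 24 h, 12 members passed in WT, 6 of them lower, against 1.68% of all tested elements lower. In ALX1FV 6 passed, 2 of them lower (background 0.999%), and with the clone as a block 35 passed, 17 of them lower (against 3153 of all 110426 tested elements). In ALX1FV ALX4- 51 passed, of which 45 were lower (background 3.7%). In PRRX1FV 29 passed, 19 of them lower (background 2.21%), and in MSX1FNV 23, of which 18 were lower (background 1.88%). At 3 h 10 members passed in WT, 2 in ALX1FV, 21 in ALX1FV ALX4-, 23 in PRRX1FV and 9 in MSX1FNV. The lower ones numbered 3, 1, 10, 7 and 5 in that order, or 0.604, 0.202, 2.02, 1.42 and 1.01% of members tested. Of all tested elements 1.6, 0.864, 2.6, 2.06 and 1.55% were lower. At 24 h the lower members were 1.21% of those tested in WT, 0.403% in ALX1FV and 3.85% in PRRX1FV. The 45 lower members of ALX1FV ALX4- were 9.11% of those tested, beside 7.74% of elements with 5 CPM and 21.8% of early-loss elements. The 18 of MSX1FNV were 3.64%, beside 1.81% of elements with 5 CPM, 3.64% of in-between and 3.82% of early-loss elements. Both 24 h libraries lay below both 0 h libraries at 126 members in ALX1FV ALX4- (25.4%, against 21.6% of elements with 5 CPM), at 113 in MSX1FNV (22.7%, against 15.8%), at 101 in PRRX1FV (20.3%, against 16.4%), at 55 in WT (11.1%, against 14.6%) and at 56 in ALX1FV (11.3%, against 12.1%). At 3 h it held for 48 in WT (9.66%), 46 in ALX1FV (9.26%), 65 in ALX1FV ALX4- (13.1%), 70 in PRRX1FV (14.1%) and 69 in MSX1FNV (13.9%). The shares of elements with 5 CPM were 15.7, 11.1, 17.0, 15.0 and 13.0%.

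With the clone as a block, 2 of 494 members were called lower in ALX1FV ALX4- at 24 h. That fit called 170 lower and 20 higher of all 122000 tested elements. The 2 members are named here after their values were seen. One, in an intron of ERC2 (chr3:56110832-56111683), measured 19.9 and 18.4 CPM at 0 h, 19.3 and 16.3 at 3 h and 7.67 and 11.2 at 24 h, with both 24 h libraries below all others. Its log2 fold change without the block was -1.04 (edgeR adjusted p = 0.104). The other, an intergenic element nearest to the homeobox gene IRX3 (chr16:54430708-54431716), measured 15.0 and 19.4, then 13.4 and 16.7, then 6.97 and 10.6, a log2 fold change of -0.98 (edgeR adjusted p = 0.214). The ERC2 element was also called when any of 3 single libraries was left out, the first or second at 3 h or the second at 0 h.

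**Figure D5:**
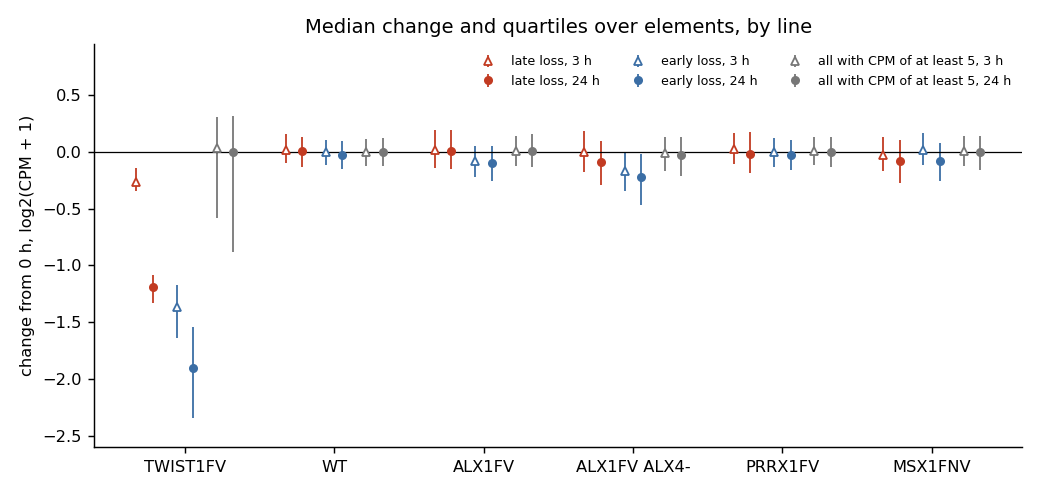
Median change in log2(CPM + 1) from 0 h and quartiles over elements, by line, for late-loss, early-loss and all elements with at least 5 CPM, at 3 h (triangles) and 24 h (circles). Late-loss elements in TWIST1FV were chosen on these values (-0.27 and -1.19), and in the other 5 lines their medians lie between -0.09 and 0.03.

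Levels before treatment were compared between ALX1FV ALX4- and ALX1FV, which share the ALX1 tag and differ in ALX4. Of the 497 members edgeR called 29 lower and 5 higher without ALX4, while it called 2.33% of all 139815 tested elements in either direction (1.68% lower, 0.647% higher). At an unadjusted p under 0.05, 153 members (30.8%) were lower, against 7.36% of all tested, 19.1% of elements with 5 CPM and 57.9% of early-loss elements. Among elements with 5 CPM 6.11% were called lower and 0.904% higher, so the members' 5.84% was near that background, below the 13.3% of in-between and 25.9% of early-loss elements. The median log2 fold change was -0.40 over members, -0.11 over elements with 5 CPM and -0.75 over early-loss elements. Without the second ALX1FV library at 0 h the members' median was -0.21. With library size in place of TMM the split was 17 lower and 9 higher, against 1820 lower and 1125 higher of all 139815 tested elements. The number of calls depended on single libraries, among members and among all tested elements alike. The members' median was -0.40 without the first ALX1FV ALX4- library at 0 h and -0.45 without the second. The lines are different clones, so genotype and clone cannot be told apart.

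At the IRX3 element the level was 79.9 and 58.8 CPM in ALX1FV and 15.0 and 19.4 in ALX1FV ALX4-, a log2 fold change of -2.09 (SE 0.207, edgeR adjusted p = 8.9e-06). It stood at 93.6 and 94.1 in WT, 60.6 and 63.6 in TWIST1FV, 39.9 and 42.4 in PRRX1FV and 37.6 and 30.1 in MSX1FNV, so ALX1FV ALX4- was the lowest line. An intergenic element nearest to CALCOCO1 (chr12:53755404-53756314) stood at 36.4 and 47.1 in ALX1FV and 12.9 and 10.3 in ALX1FV ALX4- (log2 fold change -1.92, edgeR adjusted p = 4.1e-05). One nearest to NKD2, an inhibitor of WNT signalling (chr5:980195-980695), stood at 39.7 and 40.4 and at 11.8 and 16.4 (-1.59, edgeR adjusted p = 0.00019). The PAX7 intron was lower too, at 4.54 and 6.46 CPM against 23.3 and 20.9 (-2.09, edgeR adjusted p = 0.0039). In the opposite direction, the PALD1 intron beside the double E-box one (chr10:70561711-70562211) stood at 8.21 and 9.34 in ALX1FV and at 23.2 and 30.0 in ALX1FV ALX4- (1.51, edgeR adjusted p = 0.00073). The PLXNA2 intron was also higher, at 35.4 and 29.4 against 9.03 and 15.0 (1.34, edgeR adjusted p = 0.0035). The other members called higher lie nearest to MED13L, ODC1 and ECE1. Of the 29 called lower, 4 had a V5 peak, among them those nearest to BTG1, MME and VGLL4.

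Levels at 0 h also differed between the tables, which were scaled separately and not tested against each other. The members took 0.834 and 0.720% of the counts in TWIST1FV at 0 h, 0.733 and 0.678% in WT, 0.634 and 0.700% in ALX1FV, 0.542 and 0.574% in ALX1FV ALX4-, 0.586 and 0.583% in PRRX1FV and 0.647 and 0.582% in MSX1FNV. Members were chosen for their 0 h level and later drop in TWIST1FV, so the choice itself favours a high 0 h value in that line. At 24 h TWIST1FV stood at 0.350 and 0.267%. Among single members, an intron of FTO (chr16:54010574-54011074) measured 31.2 and 19.6 CPM in TWIST1FV and 25.2 and 23.4 in WT, but 3.49 and 3.11 in PRRX1FV and 1.36 and 2.59 in ALX1FV ALX4-. Members near a single gene could thus start from very different levels in the 6 lines.

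Another member lay within 10 kb of 76 of them and within 100 kb of 139, and some of these neighbours share 1 TWIST1 peak. DISC1 and ENSG00000256514, which overlaps CLCF1 and RAD9A, were each nearest to 4 members, and 12 genes including TNS1, FTO, RFLNA, PTGS1, DHRS3, AXIN2, ZMIZ1 and BNC2 were nearest to 3. In DISC1, a scaffold protein gene, 3 intronic members lie side by side, and the first (chr1:231690143-231690643) went from 44.2 and 41.6 CPM through 32.7 and 36.1 to 16.6 and 20.7. The next (chr1:231690659-231691159) went from 41.0 and 36.6 through 28.3 and 31.0 to 13.3 and 19.5. These 2 DISC1 members share a TWIST1 peak and moved alike. In the CLCF1 region the 4 members lie within chr11:67370026-67370918 to chr11:67372869-67373702, the first with 31.3 and 21.8 CPM at 0 h, 26.8 and 17.1 at 3 h and 10.6 and 6.11 at 24 h, and the last with 30.2 and 26.9, then 24.3 and 20.2, then 8.13 and 9.96.

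An early-loss element lay within 100 kb of 184 members (37.0%) and within 10 kb of 44 (8.85%). Away from start sites the shares were 36.0% and 8.72% for members, 48.2% and 18.7% for in-between, 28.4% and 3.86% for stable elements, and 32.7% and 7.63% for all elements with 5 CPM that were not early-loss themselves. By nearest gene, 174 of the 411 member genes (42.3%) also had an early-loss element, against 18.4% of the 12152 genes nearest to any element with 5 CPM. Genes with many elements enter both counts more often.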

How the data were processed

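H3K27ac ChIP-seq was read in 36 libraries of 6 hCNCC lines. The authors aligned reads to hg38 joined with mouse mm39 and deposited read counts per merged ATAC-seq peak, 1 table per line, per the labels. Peak lists come from 1 library each, and the deposited lists give fold enrichment (a ratio), −log10 q and a summit position, per the file headers. The submitters' processing notes name Bowtie2 2.4.1, SAMtools 1.10, MACS2 2.2.7.1 and deepTools 3.5.0, with no role given there. The members, gene lists and tests were chosen with earlier results of these data known.

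CPM is a count over its column total, with 1 added before log2. Counts were tested with edgeR 4.0.16 in R 4.3.3 (TMM, low-count filter, quasi-likelihood test, Benjamini-Hochberg over all tested elements), each line with its 3 times in 1 fit, and with DESeq2 1.42.0 as an alternative. The scripts were tested on simulated counts. Peaks counted as over an element from 1 bp of overlap. Shares have Wilson 95% intervals, and these and the limits for a count of 0 (3 counts) cover counting error only. Genes and places come from GENCODE release 44, and motifs from hg38 sequence read with pysam 0.24.0 under Python 3.11.15. Exact tests used scipy 1.17.1 and plots matplotlib 3.10.9.

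Elements named in the text are the 8 with the lowest 24 h change above the median level, the 5 with the highest level, the highest at start sites (6) and with V5 peaks (4), 2 per gene list, the 4 with the lowest adjusted p in another contrast, those nearest each limit, members of the 6 genes with the most members, and 4 composite sites. Others are said to be chosen after their values were seen. Replicate numbers mark the same clone at all times in ALX1FV, ALX1FV ALX4- and PRRX1FV, per the labels, and so pair those samples. Same-numbered libraries of these lines deviated together with correlations of 0.58 to 0.60, 0.10 to 0.21 and 0.09 to 0.10. Samples of the series that the text does not name were not used here. A few elements covered by the naming rule are not reported here.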

Additional observations from a re-analysis of the deposited data

Results flagged for a closer look

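At 3 h the members' median change was -0.27 in TWIST1FV, 0.0168 in WT and 0.025 in PRRX1FV, in log2(CPM + 1). These stood out because both TWIST1FV libraries moved down while both libraries of WT and of PRRX1FV moved up. The TWIST1FV value was used to choose the elements, and the difference between lines was not tested.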

How the results depend on the processing

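The number of members was 253 with a minimum of 10 CPM, 51 with a 24 h limit of -1.5, 173 with a 3 h limit of -0.2, and 409 to 1016 when 1 TWIST1FV library was left out. No member was called in WT, ALX1FV or PRRX1FV under any alternative run. In ALX1FV ALX4- at 24 h the replicate block, which pairs clones there, called 2 members, beside 190 of all 122000 tested elements. When 1 library was left out there, the members' median log2 fold change lay between -0.13 and -0.07. In MSX1FNV at 3 h, where replicates share only a number (correlations 0.27 to 0.33), the block called 1 member. It called 7 of all 111631 tested elements. Between ALX1FV ALX4- and ALX1FV at 0 h, where a number joins different clones and is only a shared number, the block called 56 and leaving out 1 library 7 to 47. The share with TWIST1 in WT was 94.8% with either list, 84.5% at a −log10 q of at least 5, 84.5% with an overlap of 50% of the shorter, and 85.1% with TMM in the rule. With ALX1 V5 it was 0.402% in both lists and 2.01% at a −log10 q of at least 5. With AP2a it was 31.8% with either list, 17.7% at a −log10 q of at least 5, and, in alternatives chosen after seeing the data, 17.9% away from start sites and 14.7% at 45 to 55% G and C. The composite with TAATTA alone had 0. The homeodomain share ran from 21.1 to 26.7%. Apart from alternatives that hold fewer samples or elements by construction, the cause was not tested.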
